A study of Mus musculus with 3 samples.

Results

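The TAM receptor tyrosine kinases and the bridging genes of efferocytosis, the uptake of dying cells, were followed by 9 genes among the 31053 mouse genes counted: *Mertk*, *Axl* and *Tyro3* (receptors), *Gas6* and *Pros1* (their ligands), *Mfge8* (a bridging protein), and *Stab1*, *Timd4* and *Havcr2* (other receptors of phosphatidylserine). They were chosen by symbol, each symbol matched 1 gene, and their levels were compared across 3 single-cell libraries and the cell types within them. A dying cell turns the lipid phosphatidylserine to its outer surface. GAS6 and protein S, the product of *Pros1*, bind this lipid at one end and TAM receptors at the other, while MFG-E8, the product of *Mfge8*, links it to integrins, and the remaining receptors bind it directly. Through MERTK in particular, macrophages clear dead cells during tissue repair and dampen inflammatory signalling, and AXL is better known from inflamed macrophages, dendritic cells and stromal cells.

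The study examined how mouse cells respond to human skin. For the library hSTSG, human split-thickness skin was left subcutaneously for 14 days in C57BL6/J mice, wild-type in genotype, and the grafts of 5 mice were pooled and digested with collagenase IV. The other libraries were bone marrow cells of C57/BL6 mice grown with granulocyte-macrophage colony-stimulating factor (GM-CSF), left untreated (Co-Mac) or given 1,25 dihydroxy-cholecalciferol, the active form of vitamin D3, at 1 μM from day 7 for 24 hours (VD-Mac). The labels give no age, and the gene list holds mouse genes alone. Unique molecular identifiers (UMIs) mark single captured RNA molecules, and levels are given as UMIs in every 10⁶ gene UMIs (CPM) over summed cells, with the exact Poisson 95% interval in brackets. For a level of 0 the limit given is that of 3 counts. Ratios are log2 ratios of such levels with an exact conditional binomial interval. All intervals cover counting error only, and with 1 library per condition and no map from cells to mice there were no replicates and no test was made.

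A barcode was kept as a cell with 300 genes or more, under 100000 UMIs, and mitochondrial genes under 10% of them. That left 7257 cells and 132574308 UMIs in Co-Mac, 8825 cells and 116461484 UMIs in VD-Mac, and 2144 cells and 22646544 UMIs in hSTSG. The median cell held 15804, 12089 and 6637.5 UMIs in that order. Co-Mac and VD-Mac shared 15 barcodes among kept cells, Co-Mac and hSTSG 3, and VD-Mac and hSTSG 6, and no culture or graft ratio of a member left its interval when these cells were removed. The treatment label was checked with *Cyp24a1*, a classic target of the vitamin D receptor, which had 1 UMI in Co-Mac and 36662 in VD-Mac.

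Each cell was assigned to a type by a score over marker genes, none of them a member, and types carry the ending "-like". Both cultures bear the label macrophages, yet macrophage-like cells were 20.7% of Co-Mac (1503 cells) and 20.4% of VD-Mac (1798 cells). Mature DC-like cells, with the markers of mature dendritic cells, made up 41.2% (2992 cells) and 43.8% (3869 cells). A further 22.3% and 27.8% passed no threshold and stayed ungated. Near a threshold of the score, within 0.025, lay 135 macrophage-like cells of Co-Mac, 109 of VD-Mac and 12 of hSTSG. The graft held 887 macrophage-like cells (41.4%), 507 neutrophil-like, 256 T or NK cell-like and 138 fibroblast-like cells. The 8 macrophage markers summed to 1352 CPM in macrophage-like cells of Co-Mac, 1358 CPM in those of VD-Mac and 13937 CPM in those of hSTSG, with *Ctsl* the most abundant in each and none at 0. The name therefore covers cells with about the same macrophage marker level in both cultures but a far higher one in the graft. The same 8 markers set the gate, so like sums do not show that the cells were alike. Markers of other types did shift within the types: in macrophage-like cells the 6 of monocytes from 870.1 CPM in Co-Mac to 324.2 CPM in VD-Mac and the 6 of cDC1-like cells from 406.6 to 196.3 CPM, and in mature DC-like cells those of monocytes from 159.5 to 57.4 CPM, of cDC1-like cells from 85.8 to 55.6 CPM, of neutrophils from 607.0 to 985.6 CPM and the 7 of mature DC-like cells themselves from 7046 to 5748 CPM. Every culture ratio given for these types was measured beside such shifts. The macrophage-like cells of the cultures also fell into different clusters, with 581 of 1798 in VD-Mac but 72 of 1503 in Co-Mac in a cluster named neutrophil precursor. Graft macrophage-like cells were divided by further markers into 466 Trem2-type cells (*Trem2*, *Gpnmb*, *Spp1* and others), 189 Cd163-type cells (*Cd163*, *Mrc1*, *Lyve1* and others) and 232 of neither type, of which 96 lay near a threshold.

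A UMI of every member was found in the graft, and of 8 members in all libraries. By CPM, 7 members were higher in hSTSG than in both cultures and *Axl* was lower than in both, while *Tyro3* had an interval that overlaps those of both. Tissue, preparation and library differ together between graft and cultures, and their parts cannot be told apart. The question put to the cultures was what vitamin D3 changes. At the rule of a 2-fold ratio with at least 10 CPM in the higher culture, 1 of the 3 members that reached that level over all kept cells was lower in VD-Mac (*Mfge8*), where 4.63% of all 7732 genes tested were lower, and 0 were higher, where 2.16% were. In macrophage-like cells 4 members reached the level, and again *Mfge8* alone was lower (5.15% of 7764 genes) and 0 were higher (3.4%). In mature DC-like cells it was 1 of 2 members lower (3.05% of 6974 genes), the same gene, and 0 higher (2.15%). The median log2 ratio of the members tested was -0.83, -0.27 and -0.87 in these groups, against -0.10, -0.06 and 0.02 over all genes tested. So few members reached the level that these counts describe single genes.

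**Figure D1:**
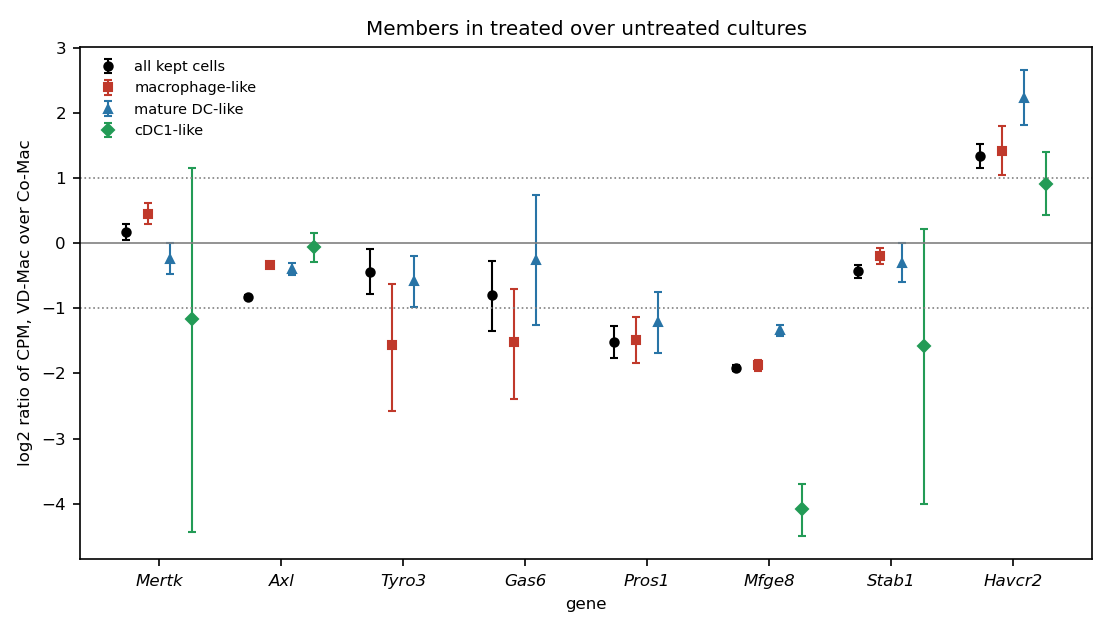
Log2 ratio of CPM in VD-Mac over Co-Mac for 8 members (*Timd4* had no UMI in either culture) over all kept cells and in macrophage-like, mature DC-like and cDC1-like cells. Points are ratios of summed cells from 1 library each, bars are exact conditional binomial 95% intervals, dotted lines mark 2-fold, and ratios with a count of 0 are not drawn. *Mfge8* lies below -1 in all 4 groups of cells, and *Havcr2* lies above 0 in all 4.

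*Mertk*, on chromosome 2 from 128698956 to 128802894 (GENCODE vM21, GRCm38, by gene ID), encodes a receptor for both GAS6 and protein S. Over all kept cells it had 8.53 CPM (8.04 to 9.04) in Co-Mac, 9.65 CPM (9.10 to 10.2) in VD-Mac and 34.1 CPM (31.8 to 36.6) in hSTSG. Within macrophage-like cells it had 15.2 CPM (13.9 to 16.5), 20.8 CPM (19.3 to 22.3) and 59.3 CPM (55.0 to 63.7). The culture ratio was 0.45 (0.29 to 0.62) in macrophage-like cells and -0.23 (-0.47 to 0.01) in mature DC-like cells. Vitamin D3-treated macrophage-like cells thus held somewhat more *Mertk* RNA, while in mature DC-like cells a difference was not detectable at this depth. The ratio over all kept cells, 0.18 (0.06 to 0.30), turned to -0.31 when cells were limited to under 5% mitochondrial UMIs, and in macrophage-like cells the ratio was then 0.65. That limit keeps 3125 cells of Co-Mac and 3619 of VD-Mac, among them 326 and 297 macrophage-like cells. The median depth of all cells so kept was 10889 UMIs in Co-Mac but 3229 in VD-Mac.

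In the graft *Mertk* was a gene of macrophage-like cells, which held 94.0% of its UMIs and exceeded the other kept cells by 3.74 (3.31 to 4.204) in log2. Cd163-type cells had 70.6 CPM (61.0 to 81.2) and Trem2-type cells 65.3 CPM (59.7 to 71.3), and the ratio between them, -0.11 (-0.35 to 0.13), spanned 0. Cells of neither type had 17.6 CPM (12.1 to 24.8), and Trem2-type cells exceeded them at a ratio of 1.89 (1.38 to 2.44). Both marker types therefore carried the receptor at like levels, and the remaining macrophage-like cells less. Those remaining cells also had the most of the 6 monocyte markers, 1116 CPM against 631.4 CPM in Trem2-type and 326.2 CPM in Cd163-type cells. Below them came fibroblast-like cells at 3.65 CPM (1.94 to 6.24), neutrophil-like cells at 2.00 CPM (0.413 to 5.85) and T or NK cell-like cells at 1.15 CPM (0.140 to 4.17), whose intervals overlap. Endothelial-like cells, only 24, had 17 UMIs and 32.0 CPM (18.6 to 51.2). With every cell thinned at random to 2000 UMIs, 8.39% of graft macrophage-like cells had a *Mertk* UMI (6.59 to 10.5, exact Clopper-Pearson), against 0.392% of T or NK cell-like cells (0.00993 to 2.17), which should lack the gene. Before thinning the median depths were 10961 and 5794.5 UMIs.

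*Axl*, on chromosome 7 from 25757273 to 25788705, encodes the receptor that binds GAS6 and not protein S. It had 175.8 CPM (173.5 to 178.0) over all kept cells of Co-Mac, 99.0 CPM (97.2 to 100.9) in VD-Mac and 59.9 CPM (56.8 to 63.2) in hSTSG. In macrophage-like cells the levels were 287 CPM (282 to 292), 227 CPM (222 to 232) and 29.8 CPM (26.9 to 33.1). Treated cultures had less, and the difference over all kept cells, -0.83 (-0.86 to -0.80), was larger than that within macrophage-like cells, -0.34 (-0.38 to -0.29), or mature DC-like cells, -0.40 (-0.49 to -0.31). With the cell types of VD-Mac weighted by their shares in Co-Mac the ratio was -0.82, and among ungated cells it was -1.34 (-1.43 to -1.26). Markers of the ungated cells shifted too, those of neutrophils from 8076 CPM in Co-Mac to 16444 CPM in VD-Mac. Those of monocytes went from 1140 to 505.9 CPM. The median depth of ungated cells was 5348 UMIs in Co-Mac and 2375.5 in VD-Mac. Monocyte-like cells, which held 16.3% of the *Axl* UMIs of Co-Mac, gave -4.25 (-4.90 to -3.68), from 231.6 to 12.1 CPM. That gate took 703 cells of Co-Mac (9.69%) and 135 of VD-Mac (1.53%), so a change of level and a change of which cells pass it cannot be told apart. The size over all kept cells depends on the mitochondrial limit: at under 5% the ratio was -1.82 over all kept cells and -1.32 in macrophage-like cells, past 2-fold in both. In macrophage-like cells of named clusters, in place of single-cell scores, it was -0.72. In cDC1-like cells, the type 1 conventional dendritic cells, 272 CPM (248 to 298) and 260.3 CPM (229 to 295) did not differ beyond counting error.

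In the graft most *Axl* UMIs, unlike those of *Mertk*, lay outside the macrophage-like cells. Fibroblast-like cells had 258.6 CPM (242 to 276) and held 67.9% of them, and macrophage-like cells held 27.0%. Macrophage-like cells of neither type had 43.3 CPM (34.4 to 53.8), Trem2-type cells 32.8 CPM (28.9 to 37.1) and Cd163-type cells 12.6 CPM (8.78 to 17.5). Trem2-type cells thus exceeded Cd163-type cells at a log2 ratio of 1.38 (0.87 to 1.93), the step at which *Mertk* did not change. T or NK cell-like cells at 3.46 CPM (1.27 to 7.53) and neutrophil-like cells at 1.34 CPM (0.162 to 4.82) were lowest of the types with at least 50 cells. Macrophage-like cells over all other kept cells of the graft gave -1.68 (-1.86 to -1.50). That direction holds for summed cells, while the mean over single cells gave 0.02.

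*Tyro3*, on chromosome 2 from 119797733 to 119818104, encodes the remaining receptor of the family and was scarce throughout. It had 1.38 CPM (1.19 to 1.60) in Co-Mac, 1.02 CPM (0.846 to 1.22) in VD-Mac and 0.839 CPM (0.505 to 1.31) in hSTSG. Unlike *Mertk* and *Axl* it was lower in macrophage-like than in mature DC-like cells, at ratios of -1.16 (-1.70 to -0.64) in Co-Mac and -2.13 (-3.09 to -1.30) in VD-Mac. Mature DC-like cells held 70.5% and 86.6% of its UMIs. Their level went from 2.49 CPM (2.08 to 2.96) to 1.66 CPM (1.36 to 2.02), and that of macrophage-like cells from 1.12 CPM (41 UMIs) to 0.379 CPM (13 UMIs), a ratio of -1.56 (-2.58 to -0.63) that was -0.53 with named clusters. In the graft 13 of its 19 UMIs came from fibroblast-like cells and 2 from macrophage-like cells.

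The ligand *Gas6*, on chromosome 8 from 13465374 to 13494490, was nearly absent from the cultures. It had 0.686 CPM (0.553 to 0.843) in Co-Mac and 0.395 CPM (0.289 to 0.527) in VD-Mac, against 129.9 CPM (125.3 to 134.7) in hSTSG. With 91 and 46 UMIs the culture ratio was -0.80 (-1.34 to -0.27), and in macrophage-like cells, from 52 and 17 UMIs, -1.51 (-2.40 to -0.70). Neither size is firm, as the ratio over all kept cells was -0.13 under the 5% mitochondrial limit and that in macrophage-like cells of named clusters -0.57. Cells of the graft that carried *Gas6* were above all Cd163-type, with 564.6 CPM (537 to 593), then fibroblast-like with 209.5 CPM (194.7 to 225). Cells of neither type had 73.8 CPM (62.0 to 87.2), with 4 of 232 cells holding 50% of the UMIs, and Trem2-type cells 57.3 CPM (52.1 to 63.0), a ratio of -0.36 (-0.64 to -0.08) to them. Endothelial-like cells had 84.7 CPM (61.8 to 113.3), and 34.3 CPM without 1 cell. Trem2-type over Cd163-type cells gave -3.30 (-3.46 to -3.15). The fibroblast-like level is carried by few cells: 5 of 138 held 50% of the UMIs, and 1 held 159, without which the level was 167 CPM. In Cd163-type cells the ligand was widespread, found in 51.7% of cells thinned to 2000 UMIs (44.1 to 59.2), against 8.24% of Trem2-type cells (5.87 to 11.2) and 0.784% of T or NK cell-like cells (0.0951 to 2.80). Of the 16 thinned Cd163-type cells with a *Mertk* UMI, 15 also had a *Gas6* UMI, where 92 of all 178 had one. In Trem2-type cells it was 5 of 45, and in cells of neither type 0 of 8. Of all 69 thinned macrophage-like cells with a *Mertk* UMI, 20 also had a *Gas6* UMI, where 138 of all 822 had one. The other receptor of GAS6 differed: 1 of 8 thinned Cd163-type cells with an *Axl* UMI had a *Gas6* UMI. In all macrophage-like cells it was 2 of 52. Of the 69 cells with a *Mertk* UMI, 11 had an *Mfge8* UMI and 0 an *Axl* UMI.

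*Pros1*, on chromosome 16 from 62854307 to 62929346, encodes protein S, the ligand of MERTK and TYRO3 that also acts in blood clotting. It had 4.38 CPM (4.03 to 4.75) in Co-Mac, 1.54 CPM (1.32 to 1.78) in VD-Mac and 59.0 CPM (55.9 to 62.3) in hSTSG. The culture ratio was -1.51 (-1.76 to -1.27) over all kept cells, -1.48 (-1.84 to -1.13) in macrophage-like cells and -1.21 (-1.68 to -0.75) in mature DC-like cells. Under the 5% mitochondrial limit the ratio in macrophage-like cells was -2.74, a value without an interval from 326 cells of Co-Mac and 297 of VD-Mac. The direction was the same in both types, at levels under the 10 CPM that the call asks for, and monocyte markers were lower in VD-Mac in both as well. In the graft fibroblast-like cells led with 220.1 CPM (205 to 236), and macrophage-like over the other kept cells gave -1.52 (-1.69 to -1.34) for summed cells but -0.14 as a mean over single cells. Cd163-type cells had 55.4 CPM (47.0 to 64.9). Cells of neither type at 26.7 CPM (19.8 to 35.3) and Trem2-type cells at 24.5 CPM (21.1 to 28.3) did not differ beyond counting error. Monocyte-like cells, 44 in number, had 37.7 CPM (23.3 to 57.7), and endothelial-like cells 114.8 CPM (87.8 to 147.5). No *Pros1* UMI was found in neutrophil-like cells, which allows up to 2.00 CPM.

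*Mfge8*, on chromosome 7 from 79133768 to 79149060, encodes MFG-E8, which couples phosphatidylserine to integrins. Its level was 136.5 CPM (134.6 to 138.5) in Co-Mac, 36.1 CPM (35.0 to 37.2) in VD-Mac and 209 CPM (203 to 215) in hSTSG. The fall with treatment, -1.92 (-1.97 to -1.87), was the only one among the members to pass the call over all kept, macrophage-like or mature DC-like cells. It was present in macrophage-like and in mature DC-like cells. Macrophage-like cells went from 159.6 CPM (155.6 to 163.8) to 43.5 CPM (41.4 to 45.8), a ratio of -1.87 (-1.96 to -1.79). Mature DC-like cells went from 78.4 CPM (76.0 to 80.8) to 31.0 CPM (29.6 to 32.4), or -1.34 (-1.42 to -1.26), beside the marker shifts given above for that type. Ungated cells gave -2.12 (-2.24 to -1.999), beside the shifts of neutrophil and monocyte markers given above for these cells. Monocyte-like cells gave -3.07 (-3.75 to -2.47), from 1533 and 22 UMIs. With 703 and 135 cells in that gate, a change of level and a change of which cells pass cannot be told apart. The fall was steeper still in cDC1-like cells, 76 in Co-Mac and 68 in VD-Mac, from 976 CPM (929.7 to 1024) to 57.7 CPM (43.5 to 75.1), or -4.08 (-4.49 to -3.69). The markers of this gate moved as well, those of cDC1-like cells from 1075 to 769.3 CPM and those of monocytes from 445.2 to 30.4 CPM, so a change of level and a change of which cells pass cannot be told apart. There 9 of the 76 untreated cells held 50% of the UMIs. The share of their cells thinned to 2000 UMIs with a UMI, which a lower level by itself reduces, went from 52.6% (40.8 to 64.2) to 8.82% (3.31 to 18.2). In macrophage-like cells that share went from 17.0% (15.1 to 19.0) to 5.89% (4.84 to 7.08), and in mature DC-like cells from 11.98% (10.8 to 13.2) to 6.11% (5.37 to 6.91). In neutrophil-like cells it was 4.23% (1.57 to 8.97) and 2.18% (0.713 to 5.02). The ratios in neutrophil-like cells, -0.51 (-1.50 to 0.49), and neutrophil precursor-like cells, -0.75 (-2.24 to 0.66), spanned 0. Under the 5% mitochondrial limit the ratio in macrophage-like cells was -2.77.

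In the graft *Mfge8* was concentrated in few cells. Macrophage-like cells had 298.7 CPM (289 to 308), but 6 of the 887 cells held 50% of their 3664 UMIs, and a single cell held 411, without which the level was 265.9 CPM. Trem2-type cells had 469 CPM (453 to 484), Cd163-type cells 17.6 CPM (13.1 to 23.3) and cells of neither type 23.5 CPM (17.1 to 31.6). A limit of 10 UMIs per cell, chosen after the values were seen, set apart 35 Trem2-type cells (7.51% of that type) with 91.5% of the *Mfge8* UMIs of all macrophage-like cells. Their median depth was 31694 UMIs against 12513 in the other 431 Trem2-type cells, and 0 of them were among the 45 graft cells with the highest doublet scores. The number 45 was set by an expected doublet rate of 2.12%, so lying outside it does not show that a cell was single. By the limit of 10 UMIs the 35 cells had far more *Mfge8* (2965 CPM) than the other Trem2-type cells (33.6 CPM). They also had more *Mertk*, 107 CPM against 58.1 CPM, a ratio of 0.88 (0.57 to 1.18), and less *Gas6*, -1.65 (-2.32 to -1.04), *Axl*, -0.85 (-1.56 to -0.22), and *Stab1*, -0.70 (-1.09 to -0.34). Elsewhere in the graft *Mfge8* was at 162.3 CPM (149.3 to 176) in fibroblast-like cells, with a UMI in 87.0% of them before thinning, at 22.5 CPM (15.99 to 30.7) in T or NK cell-like cells and at 4.67 CPM (1.88 to 9.63) in neutrophil-like cells. Among small groups cDC2 or other DC-like cells had 287.7 CPM (240.0 to 342.1), endothelial-like cells 214.5 CPM (177.0 to 257.7) and mature DC-like cells 154.0 CPM (121.7 to 192.2). Thinned to 2000 UMIs, 8.64% of macrophage-like cells (6.81 to 10.8) and 4.71% of T or NK cell-like cells (2.45 to 8.08) had a UMI. By type the share was 12.5% of Trem2-type cells (9.56 to 15.9), 3.93% of Cd163-type cells (1.60 to 7.93) and 25.2% of fibroblast-like cells (18.1 to 33.4).

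*Stab1*, on chromosome 14 from 31139013 to 31168641, encodes stabilin-1, a scavenger receptor of macrophages and sinusoidal endothelium. It had 15.7 CPM (15.0 to 16.3) in Co-Mac, 11.6 CPM (11.0 to 12.2) in VD-Mac and 109.4 CPM (105.1 to 113.8) in hSTSG. In macrophage-like cells of the cultures the level went from 32.8 CPM (30.9 to 34.7) to 28.5 CPM (26.7 to 30.3), a ratio of -0.20 (-0.32 to -0.08). Over all kept cells it was -0.43 (-0.53 to -0.33). Smaller types were past the call, neutrophil-like cells at -2.34 (-3.59 to -1.24), from 32 and 9 UMIs, and monocyte-like cells at -1.10 (-2.07 to -0.26), from 213 and 12. Neutrophil-like cells of Co-Mac, at a median depth of 2279 UMIs, had 39.9 CPM, beside 32.8 CPM in macrophage-like cells. A cluster of Co-Mac named neutrophil had 41.8 CPM and held 230 cells gated as macrophage-like, and the source of these UMIs was not tested. The monocyte-like gate, with 703 and 135 cells, had neutrophil markers at 13642 CPM in Co-Mac and 49566 CPM in VD-Mac, so its cells were not alike. The ratio in macrophage-like cells became 0.03 when monocyte-like cells were counted in, an alternative chosen after seeing the data. In the graft 93.4% of the UMIs were in macrophage-like cells, and the order of the 3 kinds of them was that of *Gas6*. Cd163-type cells had 498 CPM (472 to 525), cells of neither type 127.8 CPM (112.1 to 145.1) and Trem2-type cells 90.8 CPM (84.2 to 97.8). Among the cells of neither type 4 of 232 held 50% of these UMIs, so their place in the order rests on few cells. The 24 endothelial-like cells had 139.3 CPM (109.3 to 174.8), and 100.1 CPM without their top cell. The ratio of Trem2-type to Cd163-type cells was -2.46 (-2.59 to -2.32), and the shares of thinned cells with a UMI were 14.7% (11.6 to 18.3) and 46.1% (38.6 to 53.7). Neutrophil-like cells at 10.0 CPM (5.61 to 16.5), fibroblast-like cells at 6.74 CPM (4.32 to 10.0) and T or NK cell-like cells at 6.34 CPM (3.17 to 11.4) had overlapping intervals.

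*Timd4*, on chromosome 11 from 46810800 to 46844332, encodes TIM-4, a phosphatidylserine receptor known from long-lived resident macrophages. No UMI was found in either culture, which allows up to 0.0226 CPM in Co-Mac and 0.0258 CPM in VD-Mac. The graft held 62 UMIs, 2.74 CPM (2.10 to 3.51), and macrophage-like cells 4 of them. By gate, most came from dendritic cells: 33 from the 29 cells gated as cDC2 or other DC, at 74.2 CPM (51.1 to 104), and 15 from the 12 cDC1-like cells, at 71.2 CPM (39.9 to 118). In each of these small groups few cells carried it, 6 and 3 cells. By cluster, the highest level, 40.9 CPM, was in a cluster of 94 cells named B or plasma cell. Cells gated as B or plasma cell-like had 0 UMIs. *Timd4* was therefore not a gene of the graft macrophages as sampled here.

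*Havcr2*, on chromosome 11 from 46454935 to 46481255, encodes TIM-3, known as an inhibitory receptor of T cells that myeloid cells also carry. It had 2.62 CPM (2.36 to 2.92) in Co-Mac, 6.67 CPM (6.21 to 7.16) in VD-Mac and 44.9 CPM (42.1 to 47.7) in hSTSG. The log2 ratio of VD-Mac to Co-Mac was 1.35 (1.16 to 1.53) over all kept cells, 1.42 (1.05 to 1.80) in macrophage-like cells and 2.23 (1.82 to 2.66) in mature DC-like cells, at levels under the 10 CPM of the call and beside the marker shifts of these types. It was the one member other than *Mertk* with a ratio above 0 over all kept cells. In cDC1-like cells *Havcr2* went from 41.7 CPM (32.6 to 52.6) to 78.7 CPM (61.9 to 98.7), or 0.92 (0.43 to 1.41). With the mean over single cells in place of the sum the ratio was 0.89 over all kept cells and 0.96 in macrophage-like cells. In the graft the receptor was spread widely. Macrophage-like cells of neither type had 78.6 CPM (66.4 to 92.4), T or NK cell-like cells 53.1 CPM (42.8 to 65.1), Trem2-type cells 50.9 CPM (46.0 to 56.2) and neutrophil-like cells 36.1 CPM (27.1 to 47.0), neighbours whose intervals overlap from the T or NK cell-like cells down. Cd163-type cells had 15.8 CPM (11.5 to 21.3) and fibroblast-like cells 1.12 CPM (0.306 to 2.88). Levels in some small groups of dendritic cells and monocytes were high: cDC1-like cells had 256 CPM (193 to 335) from 54 UMIs, cDC2 or other DC-like cells 103 CPM (75.7 to 138) and monocyte-like cells 122 CPM (94.8 to 155). The 42 mature DC-like cells had only 11.8 CPM, from 6 UMIs. Macrophage-like cells over the other kept cells gave 0.16 (-0.02 to 0.35), and -0.46 with named clusters, so no difference was shown.

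**Figure D2:**
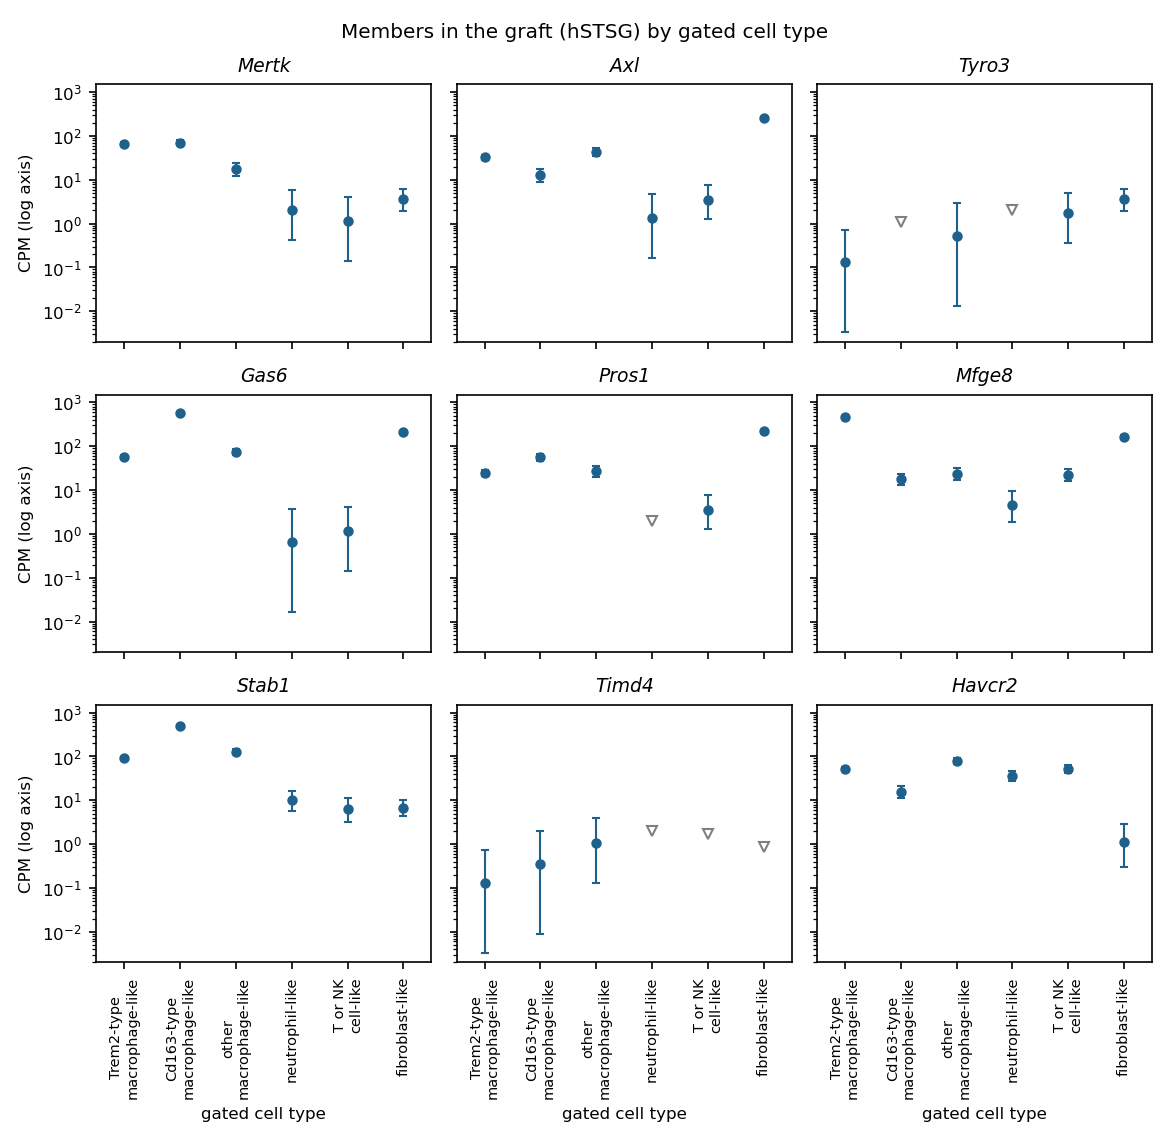
Levels of the 9 members in the graft, in CPM on a log axis, by gated cell type of at least 50 cells, with macrophage-like cells divided into Trem2-type, Cd163-type and other cells. Points are summed cells of 1 library, bars are exact Poisson 95% intervals, and open triangles are the limit that 0 UMIs allow. *Gas6* and *Stab1* are highest in Cd163-type cells (564.6 and 498 CPM), *Mfge8* in Trem2-type cells (469 CPM), *Axl* and *Pros1* in fibroblast-like cells (258.6 and 220.1 CPM). The place of *Mfge8* rests on 35 Trem2-type cells rich in it. The other 431 had 33.6 CPM, below the 162.3 CPM of fibroblast-like cells.

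Among the graft macrophage-like cells the members therefore fell into separate patterns. *Gas6*, *Stab1* and *Pros1* were higher in Cd163-type than in Trem2-type cells, *Mfge8*, *Axl* and *Havcr2* were higher in Trem2-type cells, and *Mertk* was alike in both. For *Mfge8*, 35 Trem2-type cells held 91.5% of the UMIs of all macrophage-like cells. The other 431 had 33.6 CPM, against 17.6 CPM in Cd163-type cells. *Mertk* and *Stab1* lay far above the other kept cells of the graft, and *Axl*, *Pros1*, *Tyro3* and *Timd4* lay below them in summed cells.

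A list of 85 other symbols of efferocytosis, written by hand and ordered by role, was counted by the same rule, and 1 of them, *Cdc50a*, is an older name of the listed *Tmem30a* and not in the gene list. Over all kept cells 64 reached 10 CPM, of which 46 were lower and 18 higher in VD-Mac, with 8 lower and 2 higher past 2-fold and a median of -0.20. Of all 7732 genes tested there 4720 were lower and 3012 higher, 358 and 167 of them past 2-fold. In macrophage-like cells 63 did, 41 lower and 22 higher, with 8 and 3 past 2-fold and a median of -0.24, where of all 7764 genes 4373 were lower and 3391 higher, 400 and 264 of them past 2-fold. Mature DC-like cells had 58 tested, 3 lower and 2 higher past 2-fold, and a median of -0.12, beside 213 and 150 of all 6974 genes. Most listed genes thus changed by less than 2-fold. Integrins and scavenger partners had 6 of 9 genes tested. All of these were lower over all kept cells, with 2 past 2-fold, *Cd36* and *Msr1*, neither of them an integrin. In macrophage-like cells 4 were lower and 2 higher, with 1 past 2-fold. *Cd36*, which works with thrombospondin and integrins in uptake, went from 394 to 94.3 CPM in macrophage-like cells, a ratio of -2.06 (-2.12 to -2.01). *Msr1*, scavenger receptor A, went from 111 to 45.9 CPM over all kept cells, or -1.27 (-1.32 to -1.23), and had -0.96 in macrophage-like cells, short of 2-fold. Other bridging molecules moved both ways. *C3*, whose fragments coat particles for complement receptors, rose from 137 to 694 CPM in macrophage-like cells, or 2.34 (2.29 to 2.38). *Anxa1*, a phospholipid-binding protein, fell from 521 to 201 CPM in the same cells, or -1.37 (-1.41 to -1.33). The C1q genes, named after their values were seen, were less than 2-fold higher in these cells, at 0.98 for *C1qa*, 0.68 for *C1qb* and 0.69 for *C1qc*.

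The do-not-eat-me signals and receptors, which hold back uptake, had 5 genes tested in macrophage-like cells, 4 of them lower and 2 past 2-fold, both inhibitory receptors. *Pirb* went from 115 to 31.2 CPM, a ratio of -1.88 (-1.98 to -1.78), and *Lilrb4a* from 57.2 to 25.1 CPM, or -1.19 (-1.30 to -1.07). The engulfment machinery had 11 genes tested there and only *Rac2* past 2-fold. This haematopoietic GTPase of actin remodelling rose from 275 to 666 CPM, or 1.28 (1.24 to 1.31). *S1pr1*, a receptor for the lipid sphingosine-1-phosphate that apoptotic cells release, rose from 0.843 CPM (31 UMIs) to 11.7 CPM, or 3.79 (3.26 to 4.37). Among genes of corpse digestion and lipid efflux, 16 were tested in macrophage-like cells, 11 lower and 5 higher, with 3 past 2-fold, all lower. *Rxra*, the nuclear receptor that pairs with the vitamin D receptor and with liver X receptors, went from 18.8 to 5.88 CPM, or -1.67 (-1.91 to -1.45). *Lipa*, the lysosomal acid lipase, went from 455 to 200.1 CPM, or -1.19 (-1.23 to -1.15), and *Acp5*, an acid phosphatase, from 35.8 to 17.1 CPM, or -1.06 (-1.21 to -0.92). *Socs1*, a feedback inhibitor of cytokine signalling that TAM receptors induce, went from 62.6 to 28.7 CPM, or -1.13 (-1.23 to -1.02).

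**Figure D3:**
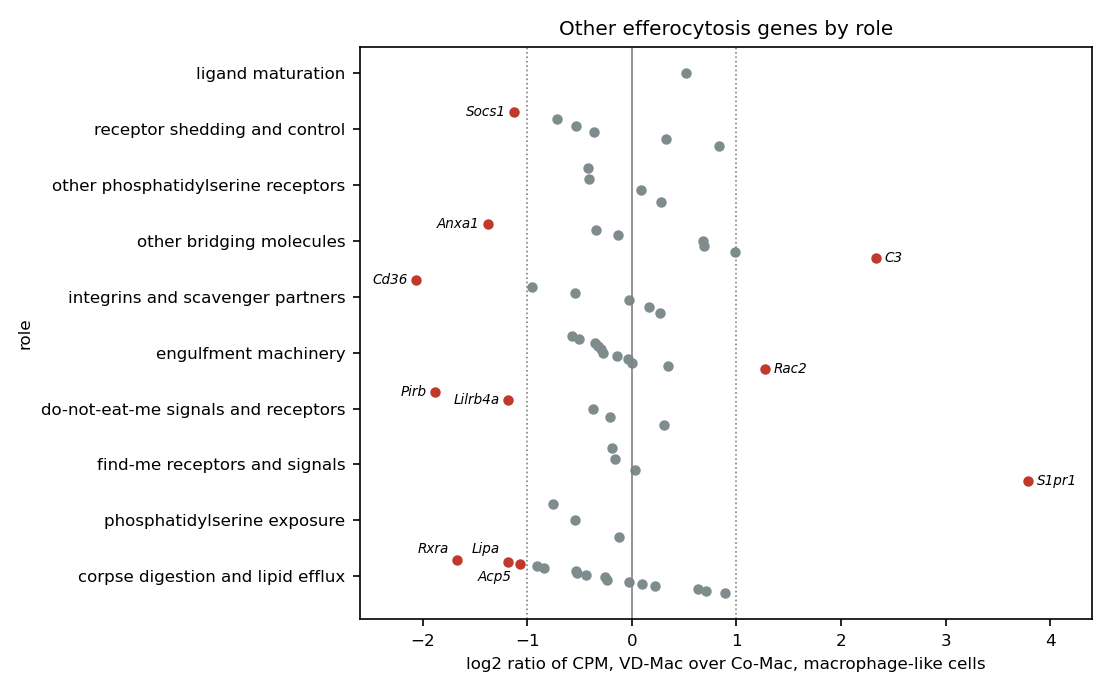
Log2 ratio of CPM in VD-Mac over Co-Mac in macrophage-like cells for the 63 listed genes with at least 10 CPM in either culture, by role. Each point is 1 gene, red points with names are past 2-fold (dotted lines), and the vertical place within a role only separates the points. The 8 named genes at the left are lower and the 3 at the right (*C3*, *Rac2*, *S1pr1*) higher in VD-Mac.

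The genes whose levels ran most like those of each member were sought by Pearson's r of log2(CPM + 1) over the 16 groups of at least 50 cells of one type in one library, among 11113 genes with at least 10 CPM in a group. These groups share libraries and differ in depth, so r is a description. *Mertk* ran most like *C1qa* (r = 0.948), *C1qc* (0.940) and *Dusp3* (0.930). For *Axl* the closest were *Arhgap6* (0.925), *Plxdc2* (0.921) and *Ccnd1* (0.910). *Gas6* was closest to *AI427809* (0.980), *Cnrip1* (0.978) and *Enpp2* (0.978), and *Pros1* to *Klf9* (0.955), *Akr1b8* (0.948) and *Bag3* (0.944). For these 4 genes the nearest r values were all above 0.9. *Tyro3* was closest to *Magi2* (0.912), *Meis3* (0.869) and *Il15ra* (0.868). For *Mfge8* they were *Sh3pxd2b* (0.899), *Slc8a1* (0.899) and *P2ry10b* (0.891), and for *Stab1* *Clec4a1* (0.871), *Sh3bgrl2* (0.850) and *Tpcn2* (0.849). *Havcr2* was nearest to *Fem1c* (0.859), *Gcnt2* (0.851) and *Stk17b* (0.846), and *Timd4*, with fewer than 100 UMIs, was left out. Between members the highest values were those of the ligands *Gas6* and *Pros1* (0.860) and of *Axl* with *Mfge8* (0.773), while *Mertk* with *Axl* gave 0.612.

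The vitamin D receptor, paired with a retinoid X receptor, binds a repeat of a 6-base site with 3 bases between the copies. Promoter windows of 300 bases, 250 before and 50 after the start, were found for 9 of 9 members in RefSeq (GRCm38.p6) and searched on both strands for the sites AGGTCA or AGTTCA or GGGTCA or GGTTCA. A site was present in 43.7% of all 32851 windows. Among the members *Mertk*, *Axl*, *Stab1*, *Timd4* and *Havcr2* held 1 each, and *Tyro3*, *Gas6*, *Pros1* and *Mfge8* held 0. The repeat with 3 bases between was in 13 windows (0.0396%) and in 0 of the members. The windows of the member that was lower past 2-fold with at least 10 CPM over all kept cells and of the one with the largest ratio above 0 are shown, 5′ to 3′, with sites in capitals: *Mfge8* at chr7:79149011-79149310 on the minus strand, and *Havcr2* at chr11:46454681-46454980 on the plus strand. A match is a description of the letters and not a binding site, and binding was not measured.
Mfge8: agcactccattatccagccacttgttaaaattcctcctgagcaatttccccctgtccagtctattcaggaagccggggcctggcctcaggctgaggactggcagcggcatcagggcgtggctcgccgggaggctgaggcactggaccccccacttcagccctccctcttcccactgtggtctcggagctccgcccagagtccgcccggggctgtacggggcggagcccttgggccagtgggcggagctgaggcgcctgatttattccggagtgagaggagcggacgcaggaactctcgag
Havcr2: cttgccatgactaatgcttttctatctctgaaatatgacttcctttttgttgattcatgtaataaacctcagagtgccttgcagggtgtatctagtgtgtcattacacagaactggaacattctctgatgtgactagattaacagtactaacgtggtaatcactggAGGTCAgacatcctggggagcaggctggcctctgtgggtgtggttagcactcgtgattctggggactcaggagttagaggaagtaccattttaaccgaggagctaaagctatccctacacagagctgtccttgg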

How the data were processed

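The deposited values of the 3 libraries (10x Single Cell 3' v3) are counts, UMIs per barcode for each gene, which the authors produced by Cell Ranger 3.1.0. The labels name mm9, the paper's methods a human genome and the files no build, so coordinates were taken from GENCODE vM21 by gene ID. Hashtag antibody UMIs were left out of totals, and doublets were kept. A cell took the type with the highest mean marker score, each marker being log-normalized to 10000 UMIs, divided by its 75th percentile and limited to 1, with a score of at least 0.2, a lead of 0.05 and 3 markers detected. This rule was settled after the data, members included, had been seen, and the members and lists were chosen with earlier results of these data known. Thinning used a fixed seed. Named genes are all members, listed genes past 2-fold with at least 10 CPM in the higher culture (all kept or macrophage-like cells), and the 3 genes most like each member. Named besides were the C1q genes, after their values were seen, and genes given as markers, as a check or for an older name. Alternatives covered filters, doublets, scaling, gating, clusters and thresholds. Python 3.11.15, numpy 2.4.6, scipy 1.17.1, pandas 2.3.3, scanpy 1.11.5, matplotlib 3.10.9, R 4.3.3 and edgeR 4.0.16 were used. The code for ratios and calls was checked on simulated data.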

Additional observations from a re-analysis of the deposited data

Results flagged for a closer look

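The library hSTSG held 1195935 UMIs of hashtag antibodies, a signal outside the gene counts, where both cultures held 0. These UMIs were not used here, since no map from hashtags to mice was available.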

How the results depend on the processing

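Against 1 member past the call over all kept cells (*Mfge8*), 2 passed with under 5% mitochondrial UMIs (*Axl*, *Mfge8*), 2 at 1.5-fold (the same genes), 2 with a minimum of 5 CPM (*Mfge8*, *Havcr2*) and 3 with no minimum (*Pros1*, *Mfge8*, *Havcr2*). In macrophage-like cells 1 became 2 under the 5% limit, 3 with a minimum of 5 CPM (*Pros1*, *Mfge8*, *Havcr2*) and 5 with no minimum (*Tyro3* and *Gas6* added). The *Mfge8* ratio over all kept cells left its interval at -2.43 under the 5% limit, -1.84 as a mean over cells, -1.82 without mitochondrial and ribosomal protein genes in the total, -1.83 with TMM factors and -1.97 with reweighted cell types. In macrophage-like cells it was -2.77 under the 5% limit, -1.75 without those genes, -1.97 with named clusters and -1.74 with monocyte-like cells added, and it stayed past 2-fold lower in each. Leaving mitochondrial and ribosomal protein genes out of the total shifts every ratio in macrophage-like cells by 0.13. The graft ratio of *Axl* reversed from -1.68 to 0.0214 as a mean over cells, and the cause was not tested. Of the culture ratios of all members under the alternatives, 56 of 72 over all kept cells and 76 of 94 in macrophage-like cells stayed within the counting interval, and 1 in each changed sign (*Mertk* and *Stab1*). As a mean over cells the graft ratio of *Gas6* was 2.54 against 1.18 and that of *Pros1* -0.14 against -1.52, and that of *Mfge8* was 2.77 with every deposited barcode against 1.54. Of 90 graft ratios 76 stayed within it and 3 changed sign (*Axl*, *Havcr2*). Thinning to 1000 or 5000 UMIs moved 38 of 54 shares out of their interval, since the share rises with depth. Under the 5% limit *Tyro3* and *Gas6* gave no ratio in macrophage-like cells, which then had 0 UMIs in a culture. Named clusters held 49.4% of the macrophage-like cells of VD-Mac, 77.0% of those of Co-Mac and 67.6% of those of hSTSG. Removing cells near a threshold, removing shared barcodes and adding monocyte-like cells were chosen after seeing the data.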
